A study of Mus musculus with 4 samples.

Results

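Expression of 9 genes of the tight junction was followed in mouse embryonic fibroblasts (MEFs), through the probes that carried the symbols Cgn, Cgnl1, Tjp1, Ocln, F11r, Jam2, Jam3, Cldn1 or Cldn12 on 4 Agilent 2-colour whole mouse genome arrays. These symbols were read by 20 of the 41174 probes outside the controls, and they are 9 of the 27745 gene symbols of the array. The symbols were selected on density and genotype contrasts of these same arrays, so every value below describes them and none is a test. C57BL/6J MEFs labelled Lats2+/+ (WT) or Lats2-/- (KO) were sampled at low density, after 48 hours while subconfluent, and at high density, after 3 to 5 days, so time in culture changed together with density. All cells were grown in DMEM with fetal bovine serum and antibiotics, and the number of embryos behind a culture is not given in the sources used here. Each array compared both densities of 1 genotype, and the second array of each genotype had the dyes exchanged. Such a pair was taken as a technical repeat, so each genotype and density had 1 replicate, no p-value is given, and the spread between arrays covers technical error only.

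Tight junctions seal the space between neighbouring epithelial or endothelial cells and help to set cell polarity. Claudins, occludin and the junctional adhesion molecules (JAMs) form their membrane part, and the zonula occludens proteins, cingulin and paracingulin form a plaque under the membrane linked to actin and myosin. Fibroblasts build no continuous tight junctions, although several of these proteins are also made outside epithelia and take part in other cell contacts.

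The labels were checked first. Of 4 Lats2 probes, 3 had more signal on the arrays labelled KO than on those labelled WT, the log2 difference being 1.19, 1.39 and 1.38 for low density and 0.91, 1.33 and 1.49 for high. The fourth gave -0.63 and -1.26. Of the probes with more signal in KO cells, A_51_P331525 (chr14:56644108-56644167) and A_52_P315345 (chr14:56644080-56644139) overlap and are nearly the same measurement. A_51_P133349 (chr14:56645246-56645305) lies close to them. The probe that went with the label, A_52_P425064, lies further off (chr14:56676512-56676571). Signal in 1 stretch of the gene therefore went against the label, and the number of probes on each side carries little weight. Which part of the gene the knockout removes is not given in the sources used here, and a probe outside it checks nothing, so KO and WT name the labels from here on. The study presents a western blot of LATS2 protein as showing the knockout in its MEFs, which is the direction of the labels, and an exchange of labels between arrays was not tested. The KO arrays lay on 2 slides and both WT arrays on another, scanned on different days, so slide and scan cannot be told apart from genotype. All 10 fibroblast markers were well above background on every array. Of 8 epithelial markers, Cdh1, Tacstd1 (now Epcam) and Krt8 were above background in no channel, while the keratins Krt7 and Krt14 were above it in all 8 channels and Krt19 in 7. Of 9 endothelial markers, 4 were above background in no channel by any of their probes, Cdh5 and Pecam1 among them, and 0 in all channels. Of 7 macrophage markers, Ptprc, Emr1 (now Adgre1) and Itgam were above it in no channel, Cd14 and Cd68 in all 8, and Lyzs (now Lyz2) reached a mean log2 signal of 12.13 in KO cells at high density. In these bulk samples, fewer cells of a type and less RNA per cell cannot be told apart.

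The sequence upstream of the transcription start is shown for Cgnl1, F11r and Cldn1, a member whose density response differed between the genotypes, one with no detectable signal in KO cells and one that rose at high density. RefSeq promoter windows (build GRCm38.p6, from 250 bases before the start to 50 after it) were matched for 7 of the 9 members, leaving Jam2 and Jam3. They were searched on both strands for GGAATG, the core bound by TEAD factors, CAGGTG, an E-box bound by Snail and ZEB repressors, and TGANTCA, the AP-1 site. Shown are the 250 bases before the start, 5′ to 3′ on the strand of the gene, with matches in capitals.
Cgnl1, chr9:71771603-71771852, minus strand: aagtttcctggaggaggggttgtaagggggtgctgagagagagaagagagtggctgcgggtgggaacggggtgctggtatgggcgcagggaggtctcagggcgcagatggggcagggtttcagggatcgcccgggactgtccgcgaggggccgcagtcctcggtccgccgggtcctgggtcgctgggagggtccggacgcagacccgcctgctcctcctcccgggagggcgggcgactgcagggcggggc
F11r, chr1:171437311-171437560, plus strand: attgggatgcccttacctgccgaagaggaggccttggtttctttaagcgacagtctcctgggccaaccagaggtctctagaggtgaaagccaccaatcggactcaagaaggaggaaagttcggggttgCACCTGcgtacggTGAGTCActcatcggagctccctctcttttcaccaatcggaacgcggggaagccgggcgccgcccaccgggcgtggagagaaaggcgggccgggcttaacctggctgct
Cldn1, chr16:26371840-26372089, minus strand: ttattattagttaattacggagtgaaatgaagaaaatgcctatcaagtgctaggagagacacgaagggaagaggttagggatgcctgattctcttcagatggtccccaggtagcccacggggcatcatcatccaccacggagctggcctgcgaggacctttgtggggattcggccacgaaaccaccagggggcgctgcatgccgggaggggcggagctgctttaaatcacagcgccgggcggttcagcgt
The F11r window held CACCTG, the E-box read on the other strand, from base -122 and TGAGTCA, an AP-1 match, from base -109. The Cgnl1 and Cldn1 windows held none of the 3 motifs, and neither did those of Cgn, Cldn12 and Tjp1, while Ocln held the E-box. Over all 32851 windows of the table, 14.7% held the TEAD core, 20.2% the E-box and 7.81% the AP-1 site. The Cgnl1 window was rich in G and C, at 73.3% with 30 CpG dinucleotides, against medians of 52.7% and 7 over all windows. F11r had 60.3% and 19 CpG, and Cldn1 56.0% and 15. A match is a description of letters, and no binding was measured here.

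Not every tight junction gene was detectable. Of the 20 probes, 6 passed as well above background in all 8 channels, 9 more in some of them and 5 in none. Those 5 were the 3 probes of Cgn, which encodes cingulin, a plaque protein that binds ZO proteins and actomyosin, and the 2 probes of Ocln, which encodes the membrane protein occludin. Their normalized log2 signals (background corrected with an offset that puts an empty probe near the floor of the scale) lay between 5.80 and 6.39. No change can be read from these probes. The remaining 7 genes had at least 1 probe above background, and the plot of signals by array shows the brightest probe of each. Levels are not compared between probes, since each probe has its own binding strength.

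**Figure D1:**
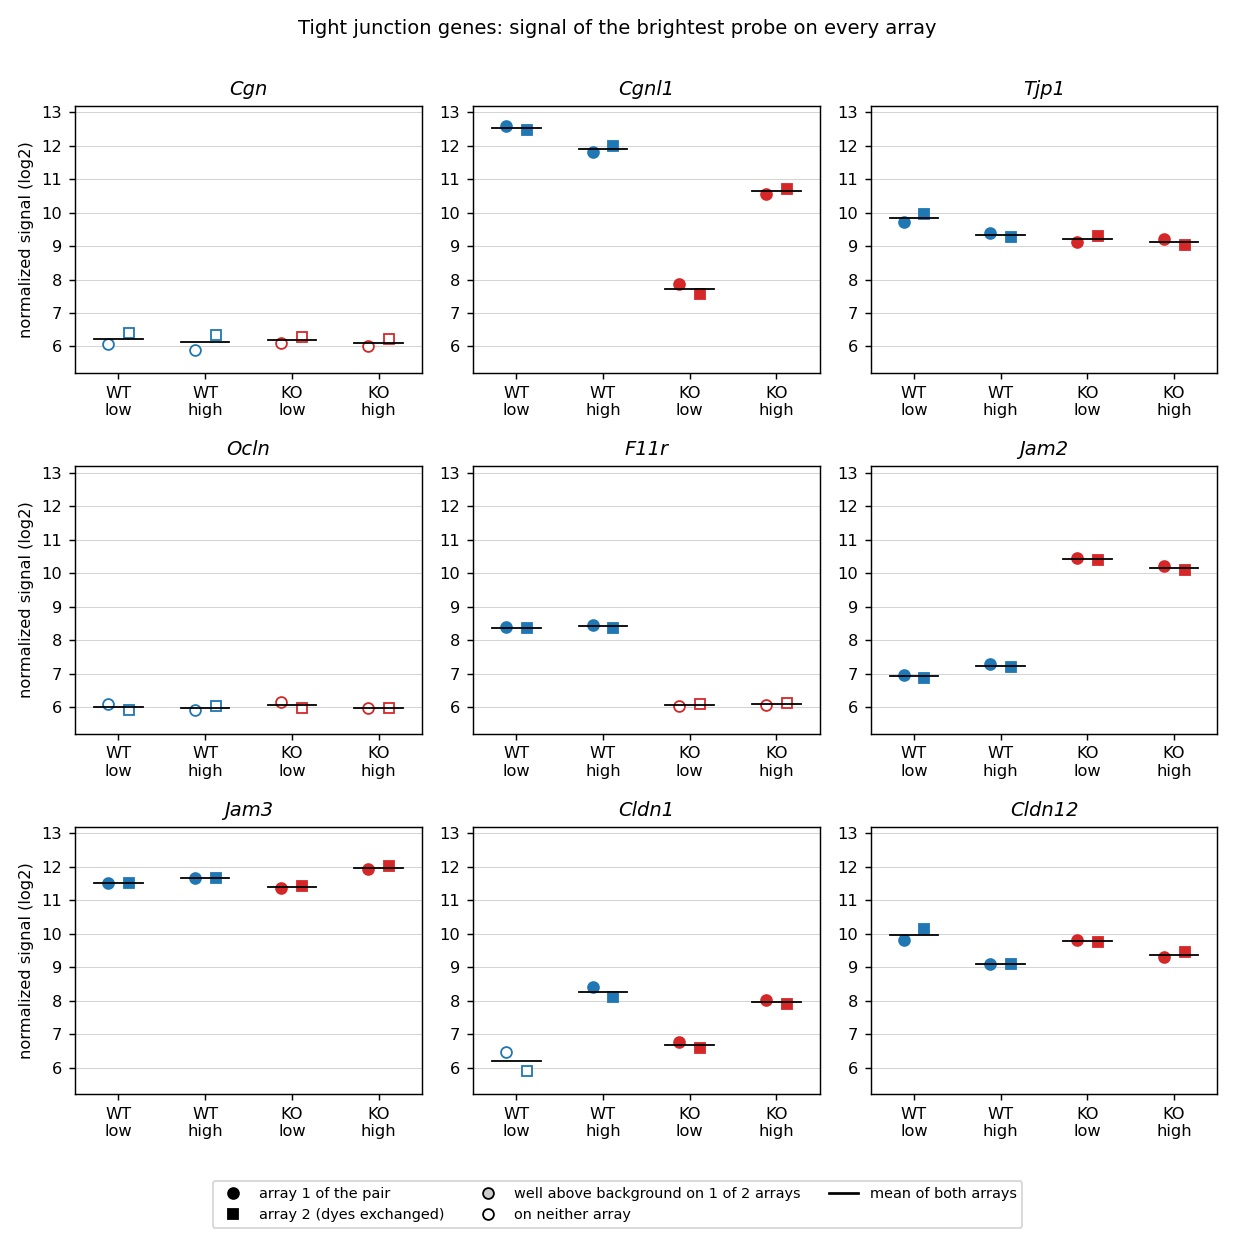
Normalized log2 signal of the brightest probe of each of the 9 genes, in WT and KO MEFs at low and high density (circles and squares, the 2 arrays of a dye swap; black lines, their mean; open symbols, not well above background on either array). Cgnl1 had its lowest signals in KO cells at low density (7.87 and 7.56), F11r was above background in WT cells alone, Jam2 was higher in KO cells, Cldn1 rose with density, and the symbols of Cgn and Ocln are open in every condition.

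Cgnl1 rose with density in KO cells and was lower in KO than in WT cells at both densities. Cgnl1 encodes paracingulin, a relative of cingulin found at tight and adherens junctions. Its brightest probe (A_51_P361678, chr9:71425119-71425178 in build mm8, minus strand) had log2 signals of 12.60 and 12.48 in WT cells at low density and of 11.82 and 12.00 at high density. KO cells gave 7.87 and 7.56 at low density and 10.56 and 10.72 at high density. The KO low density signals were far below the other 6, and every KO signal lay below every WT signal. A probe was called when the mean log2 difference reached 1 in size, which is 2-fold, and the 2 arrays, or for genotype the 2 dyes, shared its sign. By this rule Cgnl1 rose in KO cells at high density by 2.92 ± 0.33 (SD over the 2 arrays of the dye swap, or for genotype over the 2 dyes, as for every ± below), or 7.59-fold. In WT cells its mean was -0.64 ± 0.21, which was not called. The density effects differed by 3.56 ± 0.12, or 11.8-fold, ranking, with this offset, 4 from the highest among the 21545 probes measured in both genotypes. At low density the signal was 28.5-fold lower in KO than in WT cells (log2 -4.83 ± 0.13), ranking 29 from the lowest of 23339 probes. At high density it was 2.41-fold lower (log2 -1.27 ± 0.01). Averaged over the measured probes of the gene, these differences were smaller, at 1.98 for density in KO cells, 2.57 between the density effects and -2.81 and -0.83 for genotype at low and high density, the last under 2-fold and so no longer called. The gap between genotypes was thus smaller at high density, by the same 3.56 that separates the density effects, since these contrasts come from the same 8 channels.

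The other Cgnl1 probes did not all show this size. A_52_P490493, which shares 11 bases with the brightest probe, is nearly the same measurement and gave 2.69 ± 0.20 for density in KO cells, -0.67 ± 0.08 in WT cells, -4.62 ± 0.10 for genotype at low density and -1.26 ± 0.02 at high density. A_52_P75971, 98.4 kb away, was dim. It had 7.34 and 7.39 in WT cells at low density, 6.78 and 7.04 at high density and 6.58 and 6.46 in KO cells at high density, and it was not well above background in KO cells at low density. At low density it was thus at least 2.27-fold lower in KO cells, which was called. Its density effect in KO cells was a rise of at least 1.26-fold and was not called. The difference between its density effects was 0.80 ± 0.24, in the direction of the brightest probe. This value is a lower bound, for the same reason, and it was 1.24 with a background offset of 16 in place of 50 and 2.69 with the scanner software's processed signals, which have no offset, and in the series matrix. A_52_P549032, 14.8 kb away, was above background in WT cells and not in KO cells at low density, where it was at least 1.47-fold lower in KO cells, which was not called (-1.05 with an offset of 16 and -3.63 with the processed signals, past 2-fold). At high density, A_52_P75971 and A_52_P549032 gave -0.39 ± 0.27 and -0.42 ± 0.21 for genotype, neither called. Both probes are dim, and the offset shrinks such differences. A_51_P179523, 2.61 kb away, was above background in 1 of 8 channels and gave no measured contrast. All 5 probes are annotated to the same transcript on the minus strand. They were not assigned to exons, and the part that isoforms or probe binding play in these differences was not tested.

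**Figure D2:**
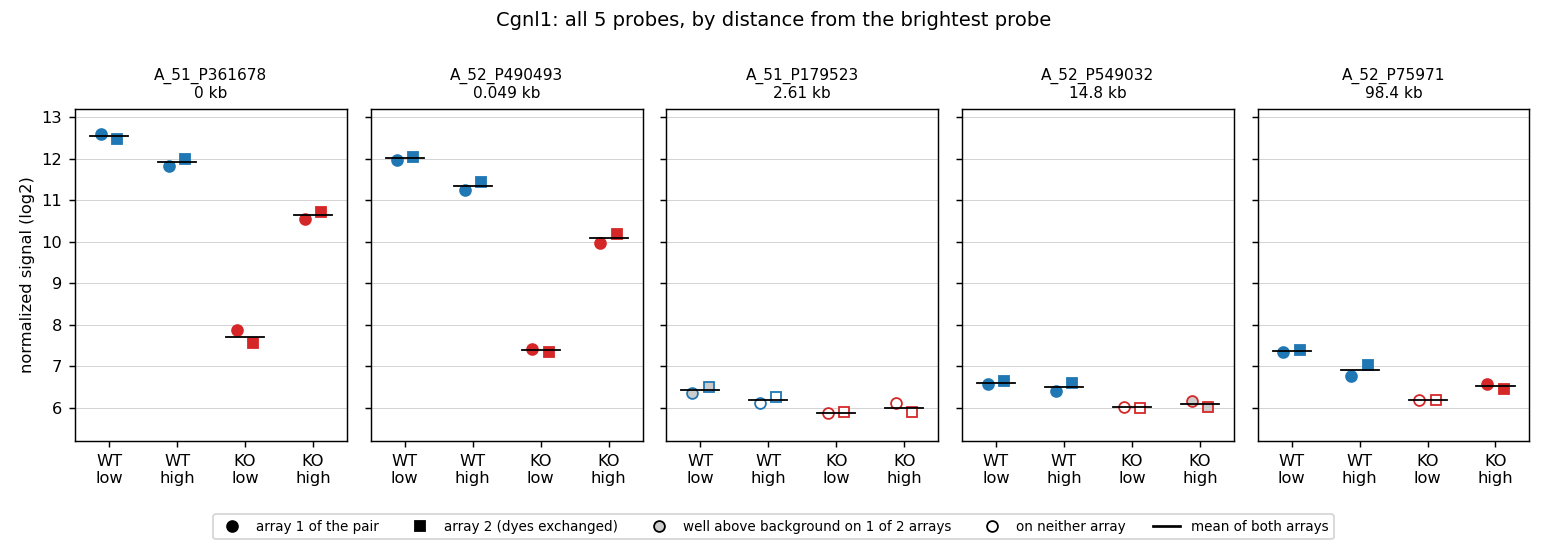
Normalized log2 signal of the 5 Cgnl1 probes in WT and KO MEFs at low and high density, ordered by genomic distance from the brightest probe (symbols as in the plot of signals by array; grey, well above background on 1 of 2 arrays). The overlapping pair at 0 and 0.049 kb shows the low signal in KO cells at low density clearly, and the 3 more distant probes lie near background.

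The 5 genes whose 8 channel signals, each centred on its own mean, came closest to those of Cgnl1 were Cthrc1, Cx3cl1, Mgp, Bcl3 and Srgap3, among 12943 genes with a brightest probe above background in all channels. Their root mean square differences from Cgnl1 were 0.544, 0.599, 0.723, 0.73 and 0.76 log2 units. In the same order, their density effects in WT cells were -1.58, 0.27, 0.60, 1.15 and 1.41, beside -0.64 for Cgnl1, so Cthrc1 alone fell too. The differences between their density effects were 3.37, 1.25, 3.07, 1.37 and 1.20, beside 3.56 for Cgnl1. Cthrc1, a secreted collagen triple helix protein, differed by genotype by -4.52 in low and -1.16 in high density cells, and Mgp, the matrix Gla protein, had -3.70 and -0.63. Cx3cl1, a membrane-bound chemokine, had -3.84 and -2.59. These are likenesses over 8 channels from 4 arrays, and they say nothing of shared control.

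Among the scaffold and membrane proteins, Tjp1 encodes ZO-1, which ties claudins and JAMs to the actin cytoskeleton. Its brightest probe (A_51_P390739, chr7:65175767-65175826, minus strand) had 9.73 and 9.97 in WT cells at low density, 9.40 and 9.26 at high density, 9.12 and 9.31 in KO cells at low density and 9.20 and 9.05 at high density. The WT low density signals were the highest, and the other 6 lay close together, from 9.05 to 9.40. The density effect was -0.52 ± 0.26 in WT and -0.09 ± 0.24 in KO cells, and the genotype difference was -0.64 ± 0.04 at low and -0.21 ± 0.01 at high density. None of these was called, and neither was any measured value of the second, dim Tjp1 probe (between -0.26 and 0.24).

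Of the 3 JAM genes, F11r was lower and Jam2 higher in KO cells, and Jam3 was not called. F11r encodes JAM-A, an adhesion molecule of epithelia, endothelia and platelets, read by 1 probe (A_51_P458866, chr1:173300392-173300451, plus strand). In WT cells it had 8.38 and 8.35 at low density and 8.45 and 8.36 at high density. In KO cells its values were 6.03 and 6.10 at low density and 6.05 and 6.12 at high density, and it was well above background in none of these 4 channels. WT and KO signals did not overlap at either density. F11r was at least 4.93-fold lower in KO cells at low density (log2 -2.30 ± 0.07) and at least 4.89-fold lower at high density (-2.32 ± 0.11). The values were -3.16 and -3.17 with an offset of 16 and -5.99 and -6.08 with the processed signals. The density effect was 0.04 ± 0.04 in WT cells, or -0.05 with the processed signals, and no density effect was measured in KO cells.

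Jam2, which encodes JAM-B, an adhesion molecule that binds JAM-C on neighbouring cells, went the other way. Its brightest probe (A_51_P418375, on the plus strand, annotated over the 1544 bases chr16:84703855-84705398) had 6.97 and 6.87 in WT cells at low density and 7.29 and 7.19 at high density. In KO cells it had 10.46 and 10.40 at low density and 10.21 and 10.10 at high density, so that each KO signal was above each WT signal. The genotype difference was 3.51 ± 0.03 at low density, or 11.4-fold, and 2.91 ± 0.01 at high density, or 7.53-fold. These sizes depend on the processing, since the processed signals gave 4.64 and 3.68, an offset of 16 gave 3.97 and 3.25, and the mean over both probes gave 2.05 and 1.68. Density effects were small and of opposite sign, 0.32 in WT cells with both arrays alike and -0.28 ± 0.04 in KO cells. The second Jam2 probe (A_52_P374846) was above background in KO cells alone, and was at least 1.39-fold higher there at low density and at least 1.17-fold at high density, which was not called (3.35 and 2.71 with the processed signals, past 2-fold).

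Jam3, which encodes JAM-C, had no called value. Its brightest probe (A_51_P358354, chr9:26847159-26847218, minus strand) had 11.53 and 11.52 in WT cells at low density, 11.66 and 11.67 at high density, 11.38 and 11.42 in KO cells at low density and 11.93 and 12.04 at high density. The last pair was the highest. The density effect was 0.14 ± 0.01 in WT and 0.58 ± 0.04 in KO cells, and median centring in place of loess gave -0.09 and 0.24. The genotype difference was -0.13 ± 0.04 at low density (0.13 without scaling between arrays) and 0.32 ± 0.07 at high density. None of these values was called. The dim second probe, A_52_P389131, disagreed between dyes at low density (-0.52 and 0.64), so no direction can be read from it.

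**Figure D3:**
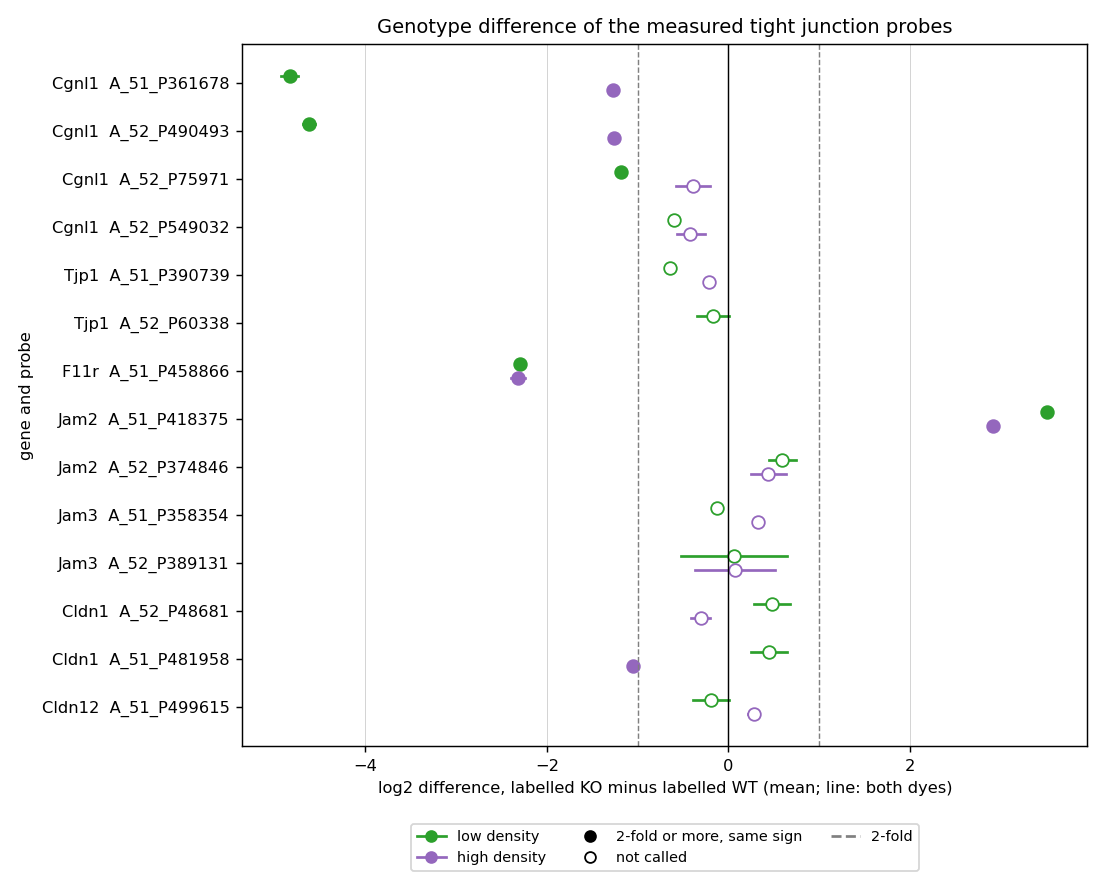
Genotype difference (KO minus WT, log2) of each measured probe at low (green) and high (purple) density, as the mean with a line joining the values of the 2 dyes. Filled points were called, and dashed lines mark 2-fold. Cgnl1 (-4.83 at low density) and F11r lie to the left, Jam2 (3.51 and 2.91) to the right, and Jam3, Tjp1 and Cldn12 lie within 2-fold.

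Of the claudins among the members, the brightest Cldn1 probe was called higher at high density in both genotypes and Cldn12 was not called. Cldn1 encodes claudin-1, a barrier-forming claudin of the epidermis and other epithelia. Its brightest probe (A_52_P48681, chr16:26272635-26272694, minus strand) was not well above background in WT cells at low density, where its values were 6.48 and 5.89. At high density it had 8.42 and 8.11 in WT cells. KO cells gave 6.77 and 6.58 at low density and 8.02 and 7.91 at high density. High density signals did not overlap low density ones in either genotype. Cldn1 was at least 4.07-fold higher at high density in WT cells (log2 2.08 ± 0.20) and 2.45-fold higher in KO cells (1.29 ± 0.06). The KO value was 2.06 with the processed signals and in the series matrix, and 0.76, no longer called, as the mean over both probes. The second probe (A_51_P481958, chr16:26274273-26274332) was at least 3.28-fold higher at high density in WT cells (1.71 ± 0.07). In KO cells it had 6.62 and 6.77 at low density and 6.95 and 6.89 at high density, a difference of 0.22 ± 0.15 that was not called. The probes therefore disagree on KO cells. The difference between the density effects (KO minus WT) was -1.50 ± 0.22 by the second probe, which was called, and -0.79 ± 0.13 by the brightest. As both probes were not well above background in WT cells at low density, neither value fixes the size of this difference. For the brightest it was -1.29 with an offset of 16, -3.40 with the processed signals, -3.39 in the series matrix and -1.14 as the mean over both probes, all past 2-fold. By genotype, the brightest and the second probe were at least 1.34-fold and 1.36-fold higher in KO cells at low density (0.48 and 0.45), where WT cells were not above background. Neither was called, and both were past 2-fold with the processed signals (2.84 and 2.50). The second probe was 2.07-fold lower in KO cells at high density (-1.05 ± 0.07), whereas the brightest gave -0.30 ± 0.15. The second probe's value was -0.83 without scaling between arrays, which is under the 2-fold size.

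Cldn12 encodes claudin-12, a claudin without the usual PDZ-binding tail. Its probe (A_51_P499615, chr5:5511508-5511567, minus strand) had 9.80 and 10.13 in WT cells at low density and 9.09 and 9.11 at high density. KO cells gave 9.80 and 9.74 at low density and 9.30 and 9.45 at high density. High density signals were below low density ones in both genotypes, by -0.86 ± 0.22 in WT and -0.39 ± 0.15 in KO cells, neither called. The WT value passed 2-fold in other settings, at -1.05 with the processed signals and in the series matrix and -1.02 with median centring or without WT replicate 1. Its genotype differences were -0.19 ± 0.28 at low and 0.28 ± 0.09 at high density.

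**Figure D4:**
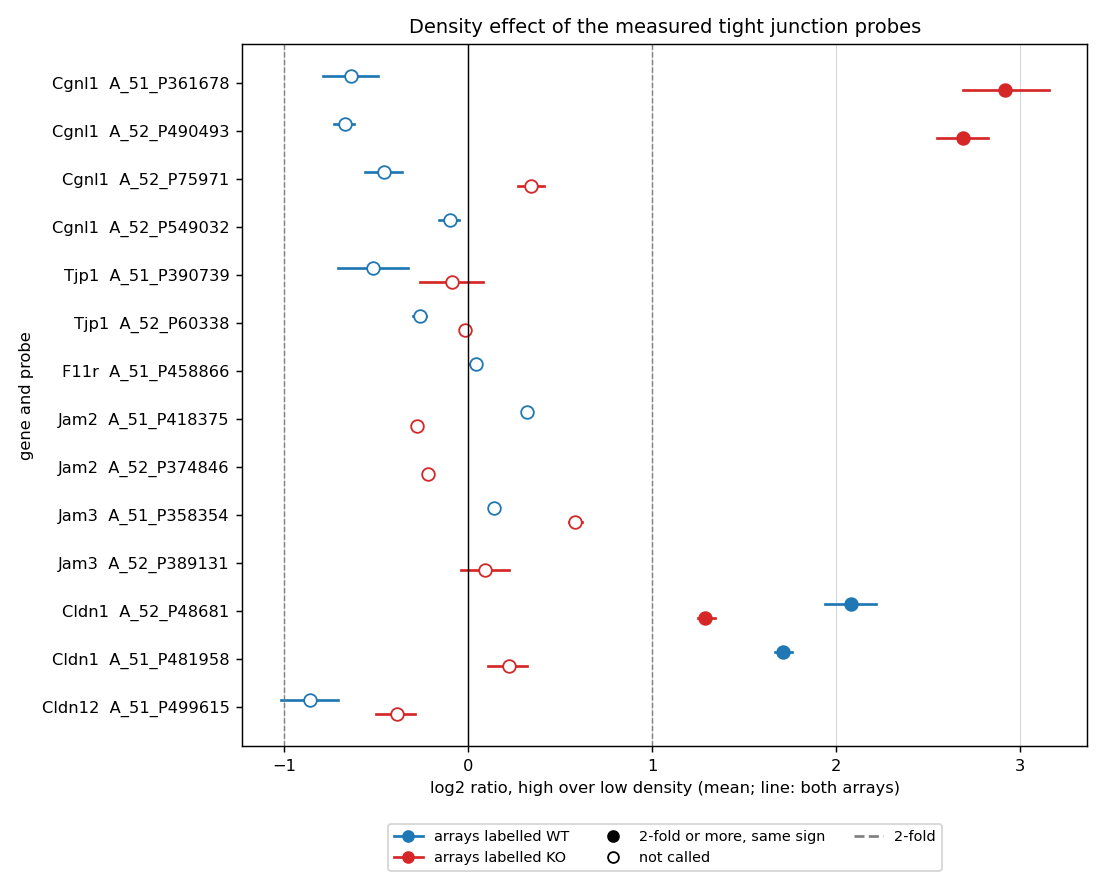
Density effect (high over low density, log2) of each measured probe in WT (blue) and KO (red) cells, as the mean with a line joining both arrays. Filled points were called, and dashed lines mark 2-fold. The Cgnl1 pair was called in KO cells alone (2.92 and 2.69), both Cldn1 probes in WT cells and the brightest also in KO cells, and the other points lie within 2-fold.

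The counts over the members stand beside those over the array, and since these contrasts chose the members nothing is read from them. For density in WT cells, 2 of 12 measured probes were called, both higher and both Cldn1, where 13.3% of 22591 probes were called. In KO cells it was 3 of 12, all higher, of Cgnl1 and Cldn1, against 9.63% of 23595. For the difference between the density effects, 3 of 10 were called, 2 higher and 1 lower, against 7.99% of 21545. For genotype at low density, 5 of 14 were called, 4 lower and 1 higher, against 13.9% of 23339. At high density 5 of 13 were called, again 4 lower and 1 higher, against 13.0% of 23617. Over brightest probes, the genes called were 1 of 7, 2 of 6, 1 of 6, 3 of 7 and 3 of 7 in the same order, and the shares over all genes 15.5%, 11%, 9.53%, 15.7% and 14.5%. The medians of the measured members were 0.04, 0.25, 0.44, -0.19 and -0.21, beside 0.06, 0.06, 0.02, 0.03 and 0.03 for all genes. The SD between arrays or dyes over all measured probes was 0.141, 0.205, 0.191, 0.159 and 0.21.

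Other genes of the junction, in 3 lists, and transcription factors of the epithelial state were followed by the brightest probe of each gene, 59 genes in all. In the same order, 6 of 31 measured genes were called for density in WT cells, 3 of 33 in KO cells, 3 of 30 for the difference, 11 of 32 for genotype at low density and 10 of 32 at high density. The shares over all genes, in that order, were 15.5%, 11%, 9.53%, 15.7% and 14.5%. These lists were written with earlier results of these arrays known, so nothing is read from the counts. The medians of the measured list genes were 0.09, -0.01, 0.11, 0.20 and 0.08. Of 19 other claudins, 12 were above background in no channel, including Cldn4, Cldn6 and Cldn8, and 1, Cldn9, in all channels. The only call among them was Cldn19, a claudin known from the kidney and the myelin sheath. It was at least 4.13-fold higher at high than at low density in WT cells and at least 4.72-fold lower in KO than in WT cells at high density. In KO cells it was above background at neither density.

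Of 9 other membrane proteins, 2 to 4 were measured in a contrast. Bves, which encodes a popeye domain protein of cell contacts, was lower in KO cells at both densities (-1.60 and -1.27). Cxadr, the coxsackievirus and adenovirus receptor, was at least 2.34-fold higher in KO cells at low density. Neither was called for density.

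Of 21 scaffold and polarity genes, 18 were above background in all channels and 20 were measured in each contrast. For density in WT cells 5 of them were called, 2 higher and 3 lower, beside a share of 15.5% over all genes. The largest rise was in Amot (1.82) and the largest fall in Amotl2 (-1.80), both angiomotins that bind YAP as well as junction proteins. In KO cells Amot had 0.18, and the difference between its density effects was -1.65. Amotl2 fell in KO cells too (-1.18). The other calls for density in KO cells were Pard3b, a polarity scaffold (1.22), and Csda, now Ybx3, a ZO-1-binding transcription factor (-1.22). By genotype, Mllt4 (now Afdn), which encodes afadin, the link between nectins and actin, was higher in KO cells at both densities (1.95 and 1.92). Sympk, which encodes symplekin, a protein of RNA 3' end processing also found at tight junctions, was lower at both (-1.49 and -1.36).

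**Figure D5:**
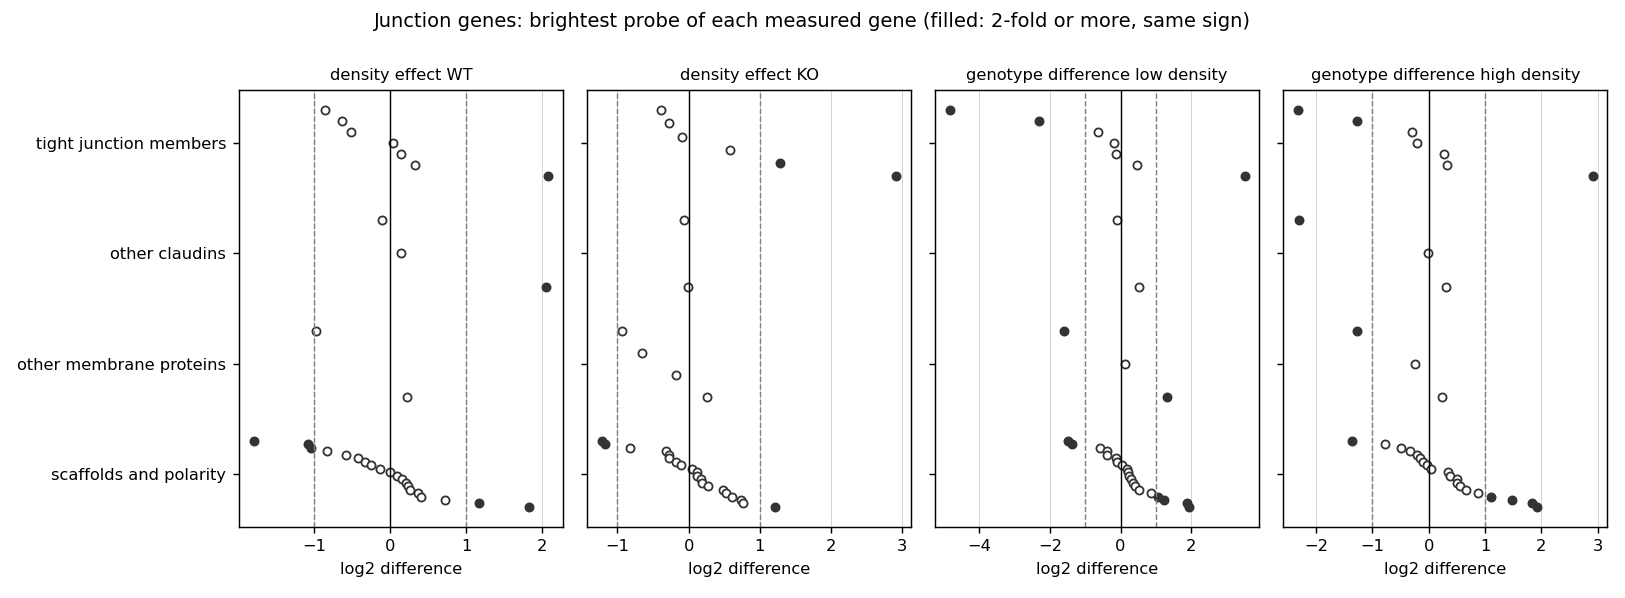
Log2 differences of the brightest probe of each measured gene among the members and 3 lists of other junction genes, for density in WT and KO cells (high over low) and genotype at low and high density (KO minus WT). Points are stacked by value, filled ones were called, dashed lines mark 2-fold, and each panel has its own scale. Cgnl1 alone gives the -4.83 among the members, and for genotype at low density the scaffolds lie between -1.49 and 1.95. The members were chosen on these contrasts, so the ranges are not compared.

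Of 10 transcription factors that set the epithelial or mesenchymal state, 6 were above background in every channel. Zeb1, a repressor of epithelial genes, was lower in KO cells at low density (-1.71), and Snai2, another, was lower in KO cells at high density (-1.15, or -0.88 without scaling between arrays). Twist2 was higher in KO cells at both densities (2.02 and 2.47). Grhl2, Elf3 and Ovol1, factors of epithelia, were above background in no channel. Grhl1, another such factor, was above it in 5 channels by its brightest probe and had no called value. Of 10 fibroblast markers, 3 were called higher and 3 lower for density in WT cells, and 5 and 1 in KO cells. For the difference between the density effects it was 5 and 2. For genotype it was 1 and 1 at low and 3 and 1 at high density. The shares over all genes were 15.5%, 11%, 9.53%, 15.7% and 14.5%. Col3a1 rose with density in WT and KO cells (4.14 and 3.44), and Pdgfra was higher in KO cells at both densities (4.46 and 3.10). Markers of other cells also moved. Over 8 epithelial markers the summed signal was 2430 to 2550 in WT cells at low density, 620 to 700 at high density, 1360 to 1430 in KO cells at low density and 301 to 347 at high density, with 2 to 4 of the 8 above background on an array. Most of it came from Krt19 and Krt7, keratins of simple epithelia, which fell with density in both genotypes. Over 9 endothelial markers it was 145 to 177 on all arrays, with 0 to 3 above background. Over 7 macrophage markers it was 606 to 707 in WT cells, 1370 to 1640 in KO cells at low density and 4170 to 5270 at high density. The only one called higher in KO cells was Lyzs, lysozyme (at least 14.9-fold at low density and a log2 difference of 4.75 at high density). Most of the sum in KO cells came from this 1 probe of Lyzs (A_52_P238027). The other, dim Lyzs probe (A_51_P321150, above background in 3 channels) gave 0.33 and 0.62. Cd14 was lower in KO cells (-1.79 and -1.59). The part of these markers in the values of F11r, Jam2, Cldn1 and Cgnl1 was not tested.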

How the data were processed

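RNA of MEFs labelled Lats2 KO or WT at 2 densities was measured on 4 Agilent 2-colour arrays, grouped by the labels. The authors scanned and extracted the arrays with Agilent Feature Extraction (10.5.1.1, also in the submitters' processing notes), and the deposited scanner files hold mean spot intensity, median background intensity, quality flags and processed signal intensity. They also hold the deposited log10 ratio of Cy5 over Cy3, which the deposited series matrix repeats rounded, turned to high over low density. Probe positions are those of build mm8 and were not converted.

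Intensity was corrected by normexp (offset 50), normalized by loess within arrays and, for signals and genotype differences, scaled by Aquantile (R 4.3.3, limma 3.58.1, the data.table package, version 1.17.8). Log2 ratios were averaged over the dye swap. Outlier and control features were left out (107 to 224 outliers of 43379 features per array), and in each channel 52.8% to 67.7% of features passed the well-above-background flag, with 0 saturated. The number of arrays limits the precision. A probe was measured for density when both arrays flagged it as well above background in at least 1 density, and for genotype when both dyes did so in at least 1 genotype. A call needed a mean log2 of at least 1 in size and 1 sign in both single values. Where a group was not well above background on any array, "at least" folds use, per array, the higher of the dim value and the lowest signal among probes so flagged. The rule was tested on simulated data. Python 3.11.15, numpy 2.4.6, pandas 2.3.3 and matplotlib 3.10.9 did the rest.

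The members, all lists and the rule for named genes (the largest rise and fall called in each list and contrast, and the 5 genes most like Cgnl1) were chosen with earlier results of these data known. Probes of genes in lists were taken as the brightest of each symbol, and some genes of the lists are not reported here. Alternatives were the processed signals, an offset of 16, median centring, the series matrix, other scalings between arrays, other filters, a 1.4-fold size, the mean over probes and leaving out each array. For genotype, leaving out an array dropped the KO and the WT array of its dye orientation together. A call with an array left out rests on the size alone, since a single value always has 1 sign.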

Additional observations from a re-analysis of the deposited data

Results flagged for a closer look

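For 4 of the 10 member probes measured for density in both genotypes, both WT arrays moved one way with density and both KO arrays the other way. The share of all probes that did so was not counted, and the members were chosen on these contrasts, so nothing is read from this number. With 1 replicate per genotype, the difference was not tested. The 2 overlapping Cgnl1 probes, which count as nearly 1 measurement, had lower signals at high density in WT cells and higher ones in KO cells, and their density effects differed by 3.56 (A_51_P361678) and 3.36 (A_52_P490493) on the log2 scale. The distant and dim Cgnl1 probe A_52_P75971 went the same way. Its difference of 0.80 is a lower bound, since it was not well above background in KO cells at low density, and it was 1.24 with an offset of 16 and 2.69 with the processed signals. Jam2 (A_51_P418375) went the other way, higher at high density in WT cells and lower in KO cells, with a difference of -0.60, below the 2-fold size.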

How the results depend on the processing

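Of the 61 measured values of member probes, 18 were called. Of 487 values under other settings, 311 lay within 1 SD of the dye swap and 176 further away, and 0 called values changed sign. These settings are not all distinct. For genotype, leaving out a KO array or the WT array of the same dye orientation gives the same value. For density, the series matrix nearly repeats the processed signals. Such repeats are counted in these totals. Called values kept their sign and a 2-fold size in 149 of 152 cases. The exceptions were Cldn1 for density in KO cells (0.76) and Cgnl1 for genotype at high density (-0.83), both averaged over the probes of the gene, and the second Cldn1 probe for genotype at high density (-0.83 without scaling between arrays). Scaling turned the sign of some uncalled values: without scaling between arrays the genotype difference was 0.13 for Jam3 and 0.06 for Cldn12 at low density and 0.05 for Tjp1 at high density, and with median centring the density effect in WT cells was -0.09 for Jam3 and -0.05 for F11r. The uncalled density effect of Cldn12 in WT cells passed 2-fold with the processed signals, the series matrix and median centring (-1.05, -1.05 and -1.02). Of 81 called values of list genes and Lats2, 0 changed sign and 6 fell under 2-fold in some setting.

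The number of member calls moved with the signal and the filter used. With the processed signals, which lack the offset, 4 were called for density in WT cells, 5 for the difference between the density effects, 9 for genotype at low and 8 at high density, and the series matrix gave 4 and 5 for the first pair of contrasts. An offset of 16 gave 5 for the difference. Requiring every channel above background left 0 calls for density in WT cells, since both Cldn1 probes were then not measured, and 3 for genotype at low density. At 1.4-fold the calls were 6 (WT density), 6 (difference) and 8 (genotype, low density). With 1 array left out (for genotype, 1 dye orientation of both genotypes), member calls ran from 2 to 3 for density in WT cells. They stayed at 3, 3, 5 and 5 for the other contrasts. Over all probes the processed signals gave 5829, 4866, 3149, 6313 and 5883 calls, the series matrix 5824, 4858 and 3147, and 1.4-fold 8576, 8165, 6124, 9387 and 8870.

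Median centring shifted the median density effect by -0.095 in WT and -0.105 in KO cells. It took the share of higher among all calls from 57.2% to 43.9% and from 61.3% to 40.4%, and leaving out scaling between arrays took it from 49.3% to 72.3% and from 49.3% to 70.2% for genotype at low and high density. The t-test of the methods was not run, because each genotype and density has 1 replicate, nor was slide as a block, because no slide holds both genotypes. No paired analysis was possible because the numbers of the arrays mark a dye swap within a genotype and the results come from no test. The offset shrinks differences of dim probes, and probes near background carry bounds alone.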
